A study of Mus musculus with 10 samples.

Results

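The response of male mouse kidneys to 16OHE was measured in 4 of the 10 messenger RNA libraries of a series on estrogens and BMPR2, and is described here across all genes. The 4 libraries were those whose labels name male animals of the Rosa or R899X genotype, 1 control and 1 given 16OHE in each genotype, so that treated and control kidneys formed 2 pairs matched by genotype. Each library was a pool of kidneys from 3 mice. The labels do not spell out 16OHE, an abbreviation in common use for an estrone with an added hydroxyl group, which is a metabolite of estrogen. R899X is a mutation type of Bmpr2, which encodes a type II receptor of the bone morphogenetic proteins (BMPs), and Rosa was the comparison genotype, which stands without that mutation label. The labels give no strain, age, dose, route or duration, and do not name the promoter that drives the mutant transcript. The same 4 combinations in females served as a comparison, and control pools of a further Bmpr2 genotype, Delx4, 1 from each sex, served to choose sex-biased genes. Each such combination was sequenced once, the spread between pools of 1 kind is therefore unknown, and the p-values rest on how far the pairs departed from a shared change.

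Minerals meant to raise copper were given to the animals of 5 samples, which the series text identifies only by number. Read as library numbers, these place both 16OHE males among the animals with minerals and neither control male, and in the male pairs 16OHE and minerals cannot be told apart. Read as places in the list of samples, the R899X 16OHE male received minerals and the other 3 libraries of the male pairs did not. The Delx4 control male also received them under this reading, and the Delx4 control female did not. The change from control to 16OHE below carries this limit throughout, and so do the comparisons of sexes and of genotypes.

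The mouse kidney is one of the organs in which males and females differ most in gene expression. Androgens acting on the proximal tubule raise a set of male-typical transporter and enzyme genes. Estrogens act through the receptors encoded by Esr1 and Esr2. Prolactin and growth hormone signal through receptors that activate STAT5 proteins, and STAT5 in turn induces feedback inhibitors of the SOCS family. Transforming growth factor beta (TGF-beta) proteins and BMPs signal through paired type I and type II receptors and SMAD proteins and act on the making of extracellular matrix.

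The libraries matched their labels in sex and genotype. The Y-linked gene Ddx3y lay between 52.5 and 57.9 CPM (reads per 1e6 gene reads, scaled by TMM) in the 4 male libraries. Bmpr2 stood at 106 and 596 CPM in the Rosa and R899X controls and at 93.4 and 888 with 16OHE, and its change with 16OHE did not pass (adjusted p = 0.63). The 4 libraries held 23.1 to 29.4 M reads in genes (M for 1e6). The Rosa control male had the largest share of mitochondrially encoded reads, 12.2%, against 7.85 to 8.54% in the other 3. Gm42418, whose locus overlaps ribosomal RNA sequence, took 2.72% of its reads and 3.51 to 4.56% in the others. In a principal component analysis of the 4 libraries, the leading component held 62.6% of the variance and placed the 16OHE libraries at 39.1 and 44.4 and the controls at -49.1 and -34.4. The next held 20.5% and separated the 2 controls, at 30.6 for Rosa and -36.1 for R899X. Markers of kidney tubules were present in all 4 libraries: the 12 proximal tubule markers summed to 21775 and 20109.5 CPM in the controls and 16178 and 17086 with 16OHE.

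With 16OHE, 1490 of 16347 tested genes (9.11%) changed in the same direction in both male pairs. Of these, 782 (4.78% of genes tested) were higher and 708 (4.33%) lower, by edgeR's quasi-likelihood test at an adjusted p of 0.05. A further 2 genes passed the test with opposite signs in the pairs. At least 2-fold in each pair were 329 rises (2.01%) and 151 falls (0.924%), so the large changes were more often rises. Without regard to any test, 485 genes were at least 2-fold higher in both pairs, 228 at least 2-fold lower in both, and 98 at least 2-fold apart in opposite directions. The median change over all genes was 0.0106 on the log2 scale. Protein-coding genes made up 94.3% of those called and 86.8% of those tested, and X-linked genes 2.48% and 3.19%. With a term for copper under the library-number reading, 128 genes passed, 87 higher and 41 lower, of which 117 were among the 1490 and changed the same way. Of 134 genes named in the text that passed in males, 35 passed with that term, among them Dhrs9, Tgfb2, Slc7a12, Gstp3 and Odc1, and 130 kept their direction. It turned for Cyp2j13, Col1a1, Pdgfrb and Aqp5. That term rests on the difference between the Rosa and R899X female pairs. Under the list-position reading 1441 passed, among them 608 of the 782 rises and 542 of the 708 falls.

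**Figure D1:**
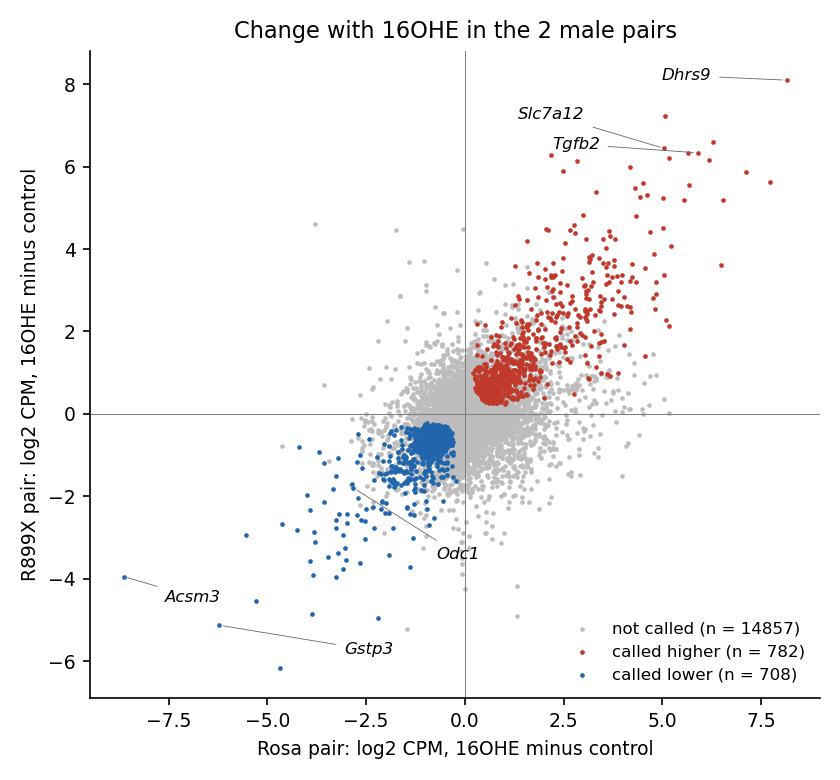
Change with 16OHE in the Rosa male pair (x axis) against the R899X male pair (y axis), both as log2 fold change of CPM, 1 point per tested gene; 782 genes called higher and 708 called lower are coloured and all others are grey. Called genes lie to the upper right and lower left of the origin, with more rises than falls far from 0 in both pairs (329 against 151 at least 2-fold in each).

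The largest rises were in genes at 3.07 CPM or less in both control male kidneys. Levels are given in the order Rosa, R899X, and changes as log2 fold change ± SE of the fit. Dhrs9 (ENSMUSG00000027068, chromosome 2), which encodes a retinol dehydrogenase, stood at 0.0945 and 0.172 CPM in the controls and at 49.7 and 69.2 with 16OHE, a change of 8.73 ± 0.23 (adjusted p = 6.16e-09). Tgfb2 (ENSMUSG00000039239, chromosome 1), the gene of a TGF-beta ligand, went from 2.6 and 3.07 CPM to 159.7 and 254, a change of 6.18 ± 0.16 (adjusted p = 6.16e-09). Both 16OHE libraries thus lay far above both controls for each of these genes, which were chosen for the size of their rise. Ano5, of the anoctamin family of membrane proteins, rose from 0.472 and 0.413 CPM to 27.5 and 39.4 (6.25 ± 0.24). The voltage-gated potassium channel gene Kcna1 had 0.0472 and 0.172 CPM in the controls and 9.26 and 18.1 with 16OHE (6.87 ± 0.41), and the collagen VI gene Col6a4 went from 0.0472 and 0.276 CPM to 27.2 and 17.5 (6.87 ± 0.35). Tprg, without a read in the R899X control, had 0.425 and 0 CPM in the controls and 17.1 and 12 with 16OHE.

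Of the 15 largest rises, 6 were in genes without a single read in either control. For these only a lower bound of the change is given, from the lower 16OHE library against a floor of 3 reads in a control library. Cuzd1, which encodes a secreted protein of the pancreas and uterus, reached 11.1 and 4.6 CPM and was at least 32.5-fold higher. Apba2, the gene of a neuronal adaptor protein, reached 4.05 and 3.74 CPM (at least 26.4-fold), and Crisp1, known from the epididymis, 2.52 and 2.99 CPM (at least 17.8-fold). The homeobox gene Gbx2 reached 1.52 and 3.5 CPM (at least 10.8-fold) and the carboxylesterase gene Ces1a 1.04 and 1.46 (at least 7.36-fold). Mucl2 was uneven, at 2.81 and 0.275 CPM, and at least 1.94-fold higher. With at most 1 read in each control, Abcb11, the bile salt export pump gene, reached 3.05 and 4.48 CPM, the developmental transcription factor gene Pax9 2.85 and 8.42 and the proteinase gene Prtn3 3.49 and 1.1. The call of Ces1a was lost without the R899X 16OHE male (adjusted p = 0.0732), and that of Mucl2 without either Rosa male library (adjusted p up to 0.471). With DESeq2 in place of edgeR the adjusted p was 0.283 for Cuzd1, 0.433 for Crisp1, 0.456 for Gbx2, 0.468 for Pax9 and 0.616 for Mucl2, and none of these 5 passed.

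Promoter sequences were looked up for these 15 genes in RefSeq (GRCm38.p6), and 14 had one. In 5 of the 14, the 250 bases before the start site hold the hexamer AGGTCA or its complement TGACCT, the core that nuclear receptors including the estrogen receptors bind, which occurs in 13.6% of the 11694 tested genes with a promoter entry. The hexamer was chosen for this search after the changes had been seen. It is shown here for the 4 genes of this group with the clearest rise, in capitals, each sequence running 5′ to 3′ toward the start site. Dhrs9 lies at chr2:69380212-69380461 on the plus strand, Abcb11 at chr2:69342617-69342866 on the minus strand, Ano5 at chr7:51510779-51511028 on the plus strand and Cuzd1 at chr7:131322293-131322542 on the minus strand.
Dhrs9: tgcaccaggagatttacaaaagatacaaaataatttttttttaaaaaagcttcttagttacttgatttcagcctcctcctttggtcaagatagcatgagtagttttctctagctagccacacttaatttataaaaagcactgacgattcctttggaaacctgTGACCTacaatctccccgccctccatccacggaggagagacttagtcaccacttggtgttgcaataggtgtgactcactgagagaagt
Abcb11: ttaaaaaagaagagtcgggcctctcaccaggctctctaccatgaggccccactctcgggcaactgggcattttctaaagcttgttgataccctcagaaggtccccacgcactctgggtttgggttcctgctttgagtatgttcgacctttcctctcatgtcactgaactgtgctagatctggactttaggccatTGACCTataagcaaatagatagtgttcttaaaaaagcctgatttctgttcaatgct
Ano5: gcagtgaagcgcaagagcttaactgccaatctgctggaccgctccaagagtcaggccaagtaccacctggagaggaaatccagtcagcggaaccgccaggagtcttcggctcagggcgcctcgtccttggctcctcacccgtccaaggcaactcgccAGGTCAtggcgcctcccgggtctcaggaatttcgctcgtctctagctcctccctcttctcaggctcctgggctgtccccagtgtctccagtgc
Cuzd1: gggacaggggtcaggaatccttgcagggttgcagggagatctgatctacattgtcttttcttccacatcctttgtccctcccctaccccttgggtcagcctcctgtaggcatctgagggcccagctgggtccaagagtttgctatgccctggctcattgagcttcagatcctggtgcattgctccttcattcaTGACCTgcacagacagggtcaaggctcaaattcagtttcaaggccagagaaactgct
Dhrs9 and Abcb11 are neighbours on chromosome 2, and both windows hold TGACCT. Its first base lies 88 bases before the start in Dhrs9, 56 in Abcb11 and 57 in Cuzd1, while AGGTCA in Ano5 begins 93 bases before it. In whole windows of 300 bases, the hexamer on either strand was found in 53 of 231 genes (22.9%) that rose at least 2-fold in both pairs, in 21 of 112 (18.8%) that fell so, and in 15.5% of all tested genes. The full estrogen response element, GGTCANNNTGACC, was found in none of these 231 and 112 windows and in 1 of all 11694. A match or its absence in a window of this length is a description of the letters only.

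The largest falls were in genes of enzymes, a protease inhibitor and developmental factors, several of them abundant in control male kidneys. Acsm3, a medium-chain acyl-CoA synthetase gene, stood at 594 and 269 CPM in the control males and at 1.4 and 17.3 with 16OHE (-5.82 ± 0.81, adjusted p = 0.00102). The glutathione transferase gene Gstp3 went from 23.9 and 19.3 CPM to 0.24 and 0.472 (-5.89 ± 0.37). Pzp, which encodes a broad protease inhibitor, fell from 359.6 and 284 CPM to 14.5 and 44.2 (-3.62 ± 0.36), and Inmt, the gene of an amine methyltransferase, from 442 and 219 to 23.2 and 31 (-3.53 ± 0.27). In each of these genes, chosen for the size of their fall, the controls lay above both 16OHE libraries with no overlap. The neuronal transcription factor gene Neurog2 went from 10.9 and 7.27 CPM to 0.2 and 0.236 (-5.33 ± 0.43). Aldh1a3, whose product makes retinoic acid, went from 8.55 and 7.58 CPM to 0.521 and 0.433 (-4.07 ± 0.53), and Rtp3, which encodes a receptor-trafficking protein, from 10.8 and 6.03 to 0.641 and 0.433 (-3.94 ± 0.38). In the Delx4 control male, which had no 16OHE, Aldh1a3 stood at 0.387 CPM, below both 16OHE libraries. Acsm3, Gstp3 and Neurog2 stood at 635, 22.3 and 9.13 CPM there.

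The other 8 of the 15 largest falls were in genes at 8.12 CPM or less in each male library. Mpped1, a putative phosphoesterase gene, had 8.12 and 5.75 CPM in the controls and 0.24 and 0 with 16OHE. Hapln1, which links hyaluronan to proteoglycans, went from 5.57 and 1.45 CPM to 0.0401 and 0.118, and the tight junction gene Cldn11 from 2.88 and 2.27 to 0.12 and 0. Angptl1, an angiopoietin-like gene, went from 1.61 and 1.62 CPM to 0.0401 and 0.118. In the Delx4 control male Cldn11 stood at 0.215 CPM, near the 16OHE libraries, and Mpped1, Hapln1 and Angptl1 at 9.99, 3.62 and 2.5. Cyp2b10, Dpys, Nwd2 and Areg were between 0.472 and 2.41 CPM in the controls and between 0 and 0.0787 with 16OHE. The calls of Dpys, Areg and Cyp2b10 were lost without the R899X control male (adjusted p up to 0.0779, 0.0845 and 0.319). That of Nwd2 was lost without either control male (up to 0.0727), and that of Cyp2b10 also without the R899X 16OHE male.

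**Figure D2:**
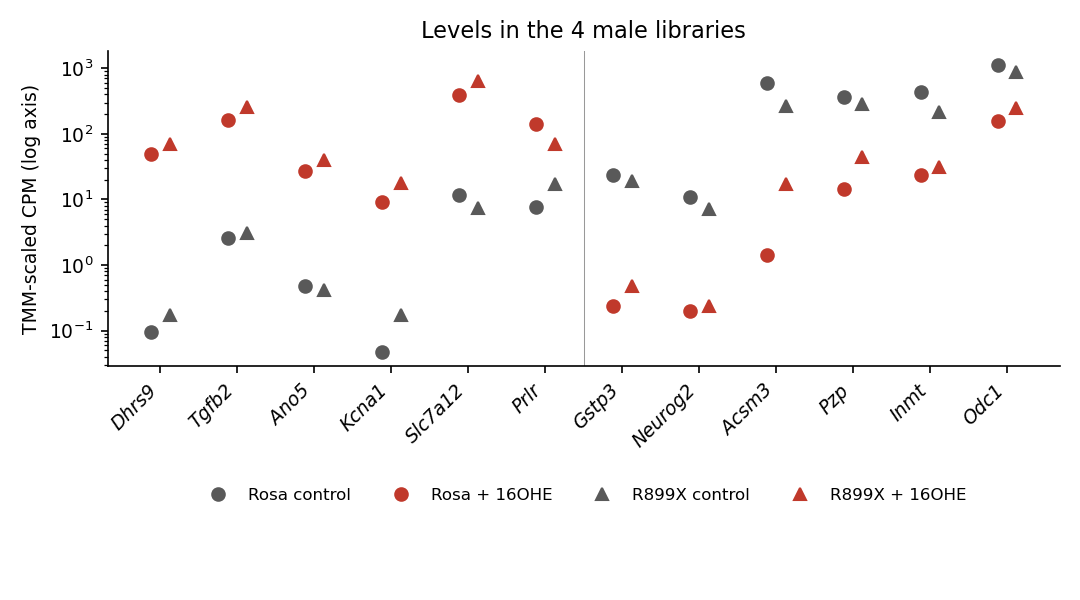
Levels of 12 genes in the 4 male libraries, as TMM-scaled CPM on a log axis; circles are Rosa and triangles R899X, grey is control and red 16OHE. The 12 genes were picked from those called with large changes in both pairs, which makes a separation of 16OHE from control libraries likely. For each of them both 16OHE libraries lie on the same side of both controls, with Tgfb2 at 160 and 254 against 2.60 and 3.07 CPM.

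Genes higher in the Delx4 control male than in the Delx4 control female were more often lower than higher with 16OHE in males. Genes higher in that female were more often higher than lower. To choose them without the libraries of the male pairs, genes at least 4-fold apart between the Delx4 control male and the Delx4 control female were taken, at 1 CPM or more in the higher. Each sex was 1 pool here. Under the list-position reading the Delx4 male received minerals and the Delx4 female did not, so sex and minerals cannot be told apart in this choice. Of 213 genes higher in the Delx4 male, 70 (32.9%) were lower with 16OHE in males, against 4.33% of all genes, and 16 (7.51%) were higher, with a median change of -0.70. Of 191 genes higher in the Delx4 female, 73 (38.2%) were higher, against 4.78% of all genes, and 13 (6.81%) lower, with a median of 0.91. With the copper term by library number, 7.04% of the 213 were lower and 12.6% of the 191 higher. In females the medians of the same genes were 0.59 and 0.16. Among genes at 10 CPM or more, 56.6% of 99 male-high genes were lower, and 63.1% of 65 female-high genes were higher with none lower.

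Single genes at the ends of that scale did not all move alike. Of the 6 genes highest in the Delx4 male by this difference, Cyp2j13, a cytochrome P450 gene, went from 487 and 325 CPM in the control males to 91 and 214 with 16OHE (-1.51 ± 0.35). That call was lost with DESeq2 (adjusted p = 0.441). Cyp2j13 stood at 0.562 and 0.645 CPM in the control females, so the treated males remained far above the female level. The organic anion transporter gene Slco1a1 had 737 and 563 CPM in the controls against 149 and 478 with 16OHE, which just missed the threshold (adjusted p = 0.0539), and the amino acid transporter gene Slc7a13 854 and 555 CPM against 431 and 726 (adjusted p = 0.798). Acsm3 was also among the 6, and the remaining ones, Eif2s3y and Uty, are Y-linked and did not pass. Of the 6 highest in the Delx4 female, the glucuronosyltransferase gene Ugt1a2 went from 5.38 and 3.13 to 67.7 and 40.4 CPM (3.67 ± 0.15), against 619.7 and 687 in control females. Slc17a2, a sodium phosphate cotransporter gene, went from 0.425 and 0.0689 to 4.17 and 2.75 CPM and the ion pump gene Atp13a4 from 0.0472 and 0.0344 to 3.57 and 0.787. Igf2, the insulin-like growth factor 2 gene, had 4.3 and 2.07 CPM in the control males against 1.92 and 2.32 with 16OHE (adjusted p = 0.336), far below the 473 and 317 of control females. Hdc, whose product makes histamine, had 0.519 and 0.551 CPM against 5.25 and 1.97 and did not pass (adjusted p = 0.0751). The last of the 6 was Xist.

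**Figure D3:**
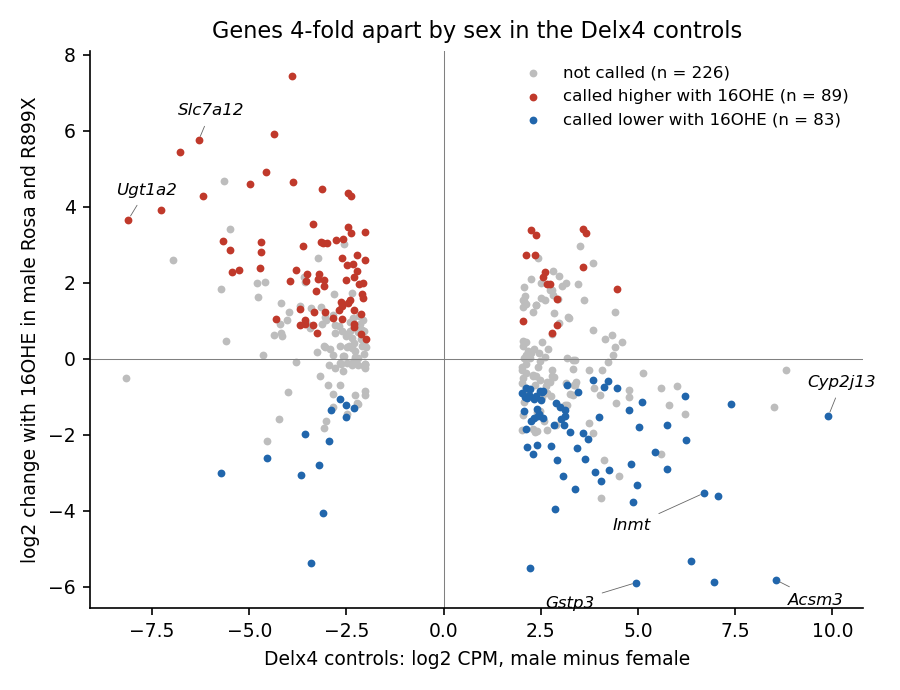
Difference between the Delx4 control male and the Delx4 control female (x axis, log2) against the change with 16OHE in males (y axis, log2) for 398 genes at least 4-fold apart in the Delx4 pair, Y-linked genes and Xist left out; red marks 89 genes called higher, blue 83 called lower and grey 226 not called. Blue points gather on the male-high side and red points on the female-high side.

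The list counts from here on stand beside 4.78% of all tested genes higher and 4.33% lower, so that 1 gene of 20 in a direction is about that share. A list of 16 genes known as male-biased in the kidney had 11 lower and none higher with 16OHE, and its median was -1.38, beside 0.0106 over all genes. Odc1, the gene of ornithine decarboxylase and a classical androgen target, fell from 1117 and 873 CPM to 157 and 251 (-2.31 ± 0.22, adjusted p = 8.72e-05). Cyp2e1, a drug- and alcohol-oxidising P450 gene, fell from 1948 and 1354 to 435 and 500.0 CPM (-1.80 ± 0.19) and Cyp4b1 from 3163 and 2668 to 1004 and 1056 (-1.50 ± 0.15). Kap, the kidney androgen-regulated protein gene, stood at 18342 and 10592 CPM in the controls and 18752 and 26454 with 16OHE and did not pass (adjusted p = 0.179). Both 16OHE libraries lay above both controls for Kap.

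Of 12 genes known as female-biased in the kidney, 7 were higher and none lower, with a median of 2.01. Slc7a12, which encodes an amino acid transporter family member, rose from 11.8 and 7.3 CPM to 394 and 642 (5.75 ± 0.30, adjusted p = 1.31e-06). It stood at 218 and 236 CPM in control females, below both 16OHE males. The prolactin receptor gene Prlr rose from 7.7 and 16.9 to 141 and 71 CPM (3.06 ± 0.37) and the efflux pump gene Abcc3 from 4.82 and 4.79 to 48 and 25.5 (2.85 ± 0.22). Kynu, which encodes kynureninase of tryptophan breakdown, rose from 18.3 and 20.7 to 46.2 and 42.8 CPM (1.19 ± 0.13). The fatty acid hydroxylase gene Cyp4a14 was uneven between genotypes, at 34.4 and 50.5 CPM in the controls and 419 and 98.4 with 16OHE (2.27 ± 0.47), and its call was lost with DESeq2 (adjusted p = 0.0723). With each male library left out in turn, 7 to 15 of the male-biased genes were lower and 8 to 10 of the female-biased ones higher. With the copper term by library number these counts were 2 and 3. Without either Rosa male library 1 male-biased gene was higher, and without either R899X one 1 female-biased gene was lower.

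In a list of 12 steroid hormone receptor genes, 2 were higher, Pgr and Prlr, and 3 lower, Esr1, Esr2 and Esrra. Prlr, the prolactin receptor gene, and the orphan receptor gene Esrra stand in this list although neither encodes a receptor known to bind a steroid. Both estrogen receptor genes were among the lower ones: Esr1 went from 47.3 and 38.1 CPM to 19.9 and 24.7 (-0.93 ± 0.18, adjusted p = 0.00695) and Esr2 from 2.98 and 4.44 to 0.281 and 0.511 (-3.23 ± 0.59). Pgr, the progesterone receptor gene and a standard estrogen target, rose from 0.803 and 0.62 to 4.53 and 3.82 CPM (2.55 ± 0.35). Of 13 estrogen-responsive genes 6 were higher, Pgr among them, and 2 lower, Areg (-4.56 ± 0.81) and Susd3. In steroid synthesis and inactivation, 3 of 17 rose and 2 fell. Without either Rosa male library 5 rose and 1 fell, and without either R899X one 2 rose and 4 fell. Akr1c18, which encodes an enzyme that inactivates progesterone, rose from 49.4 and 32 to 202 and 366 CPM (2.77 ± 0.29), and Cyp1b1, an estrogen hydroxylase gene, from 7.93 and 8.85 to 12.8 and 14.4 (0.69 ± 0.15), a call lost with DESeq2 (adjusted p = 0.086). Hsd17b2, whose product oxidises estradiol and testosterone, fell from 14.7 and 9.71 to 2.24 and 4.84 CPM (-1.80 ± 0.37).

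Of 13 growth hormone and insulin-like growth factor genes 4 rose and 1 fell, and without either R899X male library 7 rose and 2 fell. Socs2 of this list, a feedback inhibitor that STAT5 induces, went from 14.2 and 12.9 CPM to 93.3 and 86.2 (2.73 ± 0.14, adjusted p = 1.19e-06). Stat5a itself rose from 14.5 and 18 to 105 and 83.3 CPM (2.52 ± 0.15) and Stat5b by 0.66 ± 0.11. The change of Socs2 was larger in males than in females, where it was 0.76 ± 0.13 (adjusted p of the difference = 0.000781), while that of Stat5a differed by 0.52 ± 0.21, male minus female (adjusted p = 0.41).

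Of 15 genes for TGF-beta and activin ligands and the proteins that bind and hold them, 5 rose and none fell. Beside Tgfb2, the ligand gene Tgfb3 rose from 1.04 and 2.62 CPM to 41.8 and 45.3 (4.58 ± 0.33, adjusted p = 1.40e-05), and Ltbp4, which encodes a latent TGF-beta binding protein, from 8.36 and 11.7 to 16.9 and 18.8 (0.84 ± 0.14). None of the 14 genes for TGF-beta receptors and SMADs passed, and their median was 0.01. Of 19 BMP ligand, receptor and SMAD genes 4 rose and 1 fell, beside the same 4.78% and 4.33%, so that the fall was near the share over all genes. None of the 19 passed with the copper term by library number. The BMP antagonist gene Grem1 rose from 2.69 and 2.0 to 7.53 and 5.15 CPM (1.42 ± 0.22). Bmp7, the main renal BMP ligand gene, fell from 78.2 and 68.4 to 42.6 and 41.7 CPM (-0.80 ± 0.11). Of 14 genes that these pathways are known to induce, 3 rose and 1 fell. Id4 of the inhibitor of differentiation family rose from 55.6 and 40.9 to 97.2 and 63.2 CPM (0.72 ± 0.13), while the gene that fell was Id3 of the same family.

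Among matrix genes, collagen genes rose more often than they fell. Of 35 collagen genes tested, 11 rose and 2 fell, beside 4.78% and 4.33% of all genes, so that the falls were near the share over all genes. Of 6 collagen VI genes 4 rose, all at least 2-fold in both pairs: beside Col6a4, Col6a1 went from 7.51 and 8.37 CPM to 62.2 and 49.3 (2.79 ± 0.23, adjusted p = 3.17e-05), Col6a2 from 5.34 and 7.37 to 57.1 and 43 (2.95 ± 0.27) and Col6a3 from 14.1 and 24.4 to 136 and 99.1 (2.62 ± 0.24). Col6a5 did not pass, at under 1 CPM in all 4 libraries. Col6a6 was the collagen VI gene called lower, from 150.4 and 161 to 83.2 and 129 CPM (-0.59 ± 0.15), and its call was lost without either Rosa male library (adjusted p up to 0.394). The fibrillar collagen genes Col1a1 and Col5a1 rose by 1.27 ± 0.30 and 1.97 ± 0.27, and Col27a1 fell by 1.04 ± 0.14. The call of Col1a1 was lost with DESeq2 (adjusted p = 0.272). Col5a1, Col27a1, Col6a5 and Col6a6 were named after their values were seen. Of the collagen genes Col6a1 alone passed with the copper term by library number.

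In matrix glycoproteins and proteoglycans 5 of 25 genes rose and 2 fell. The fibronectin gene Fn1 rose from 16.6 and 26.2 CPM to 62.1 and 55.1 (1.47 ± 0.17) and the laminin chain gene Lama2 from 5.9 and 6.79 to 12.7 and 14.4 (1.10 ± 0.16). Another laminin chain gene, Lama1, fell from 26.3 and 27.1 to 9.18 and 12.7 CPM (-1.30 ± 0.15), and Vcan, which encodes the proteoglycan versican, from 10.5 and 10.9 to 1.76 and 1.73 (-2.61 ± 0.32). Among 15 genes of matrix remodelling 6 rose and 2 fell. The urokinase gene Plau rose from 772 and 672 to 1603 and 1674 CPM (1.18 ± 0.14), and the metalloproteinase genes Mmp2 and Mmp14 rose by 1.30 ± 0.24 and 1.29 ± 0.21. The tissue plasminogen activator gene Plat fell from 59.5 and 69.8 to 39.99 and 35.7 CPM (-0.77 ± 0.12). Of the 25 glycoprotein and proteoglycan genes, 11 rose without either R899X male library and 3 without either Rosa one. None passed in either list with the copper term by library number.

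Markers of matrix-making cells did not move in 1 direction. Of 9 mural and fibroblast markers 1 rose and 3 fell, and together they summed to 187 and 262 CPM in the controls and 231 and 212 with 16OHE. The receptor gene Pdgfrb rose from 22.9 and 22.8 to 41.2 and 41.3 CPM (0.85 ± 0.17), and the smooth muscle myosin gene Myh11 fell from 38.4 and 61 to 27.2 and 32.7 (-0.70 ± 0.16). Its companions Acta2 and Tagln fell by 0.64 ± 0.17 and 0.58 ± 0.13, calls that were lost without either R899X male library (adjusted p up to 0.109 and 0.254). In the Delx4 control male, without 16OHE, Myh11 stood at 27.1 CPM, near its levels with 16OHE. Acta2 stood at 25.6 CPM there, against 24.3 and 29.1 with 16OHE, and Pdgfrb at 19.2. In pooled whole kidney a change in the number of cells of a type and a change in RNA per cell cannot be told apart, here and in what follows.

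**Figure D4:**
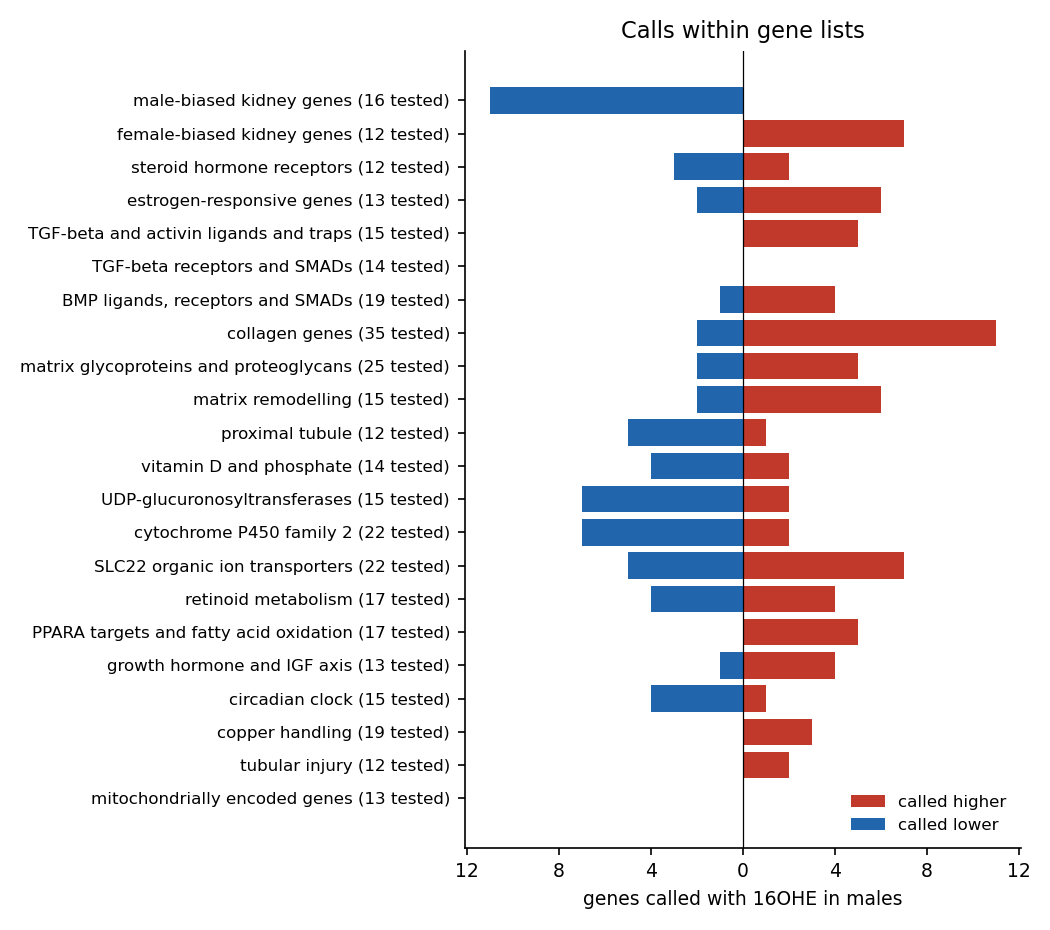
Number of genes called higher (bars to the right) and lower (bars to the left) with 16OHE in males for 22 gene lists, with the number tested in each list given beside its name. The male-biased list has 11 lower and none higher, and the female-biased list 7 higher and none lower.

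Several transport genes of the proximal tubule fell. Of 12 proximal tubule markers 5 fell and 1 rose, and their summed levels are given above. Slc34a1, the main sodium phosphate cotransporter gene of the tubule, went from 5655 and 4953 CPM to 2625 and 2634 (-1.01 ± 0.16, adjusted p = 0.00198). The dicarboxylate transporter gene Slc13a3 fell from 1672 and 1664 to 681 and 561 CPM (-1.43 ± 0.15) and the glucose transporter gene Slc5a2 from 308 and 337 to 167 and 221 (-0.75 ± 0.13). In the list of 14 vitamin D and phosphate genes, 4 fell, all of them phosphate transporters, and 2 rose. Cyp27b1, which encodes the enzyme that makes active vitamin D, rose from 3.31 and 1.79 to 31.5 and 27 CPM (3.57 ± 0.22, adjusted p = 4.20e-06), and the calcium channel gene Trpv5 from 10.8 and 9.13 to 18.6 and 17.1 (0.85 ± 0.14).

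Organic ion transporter genes split in both directions. Of 22 measured SLC22 genes 7 rose and 5 fell. The urate transporter gene Slc22a12 fell from 1474 and 1839.6 CPM to 510.3 and 677 (-1.49 ± 0.14). Slc22a19 rose from 79.6 and 42.7 to 440.0 and 472 CPM (2.96 ± 0.21), Slc22a26 from 33.8 and 13.2 to 216 and 292 (3.55 ± 0.33) and Slc22a29 from 3.87 and 4.34 to 22.5 and 13.3 (2.06 ± 0.22). Slc22a19, Slc22a26 and Slc22a29 belong to a cluster of closely related copies, so reads that fit more than 1 of them may be left out. Without either R899X male library 8 of the SLC22 genes fell and 7 rose. Of 9 SLCO genes 3 rose and 2 fell, but 1 rose and 4 fell without either R899X male library or with the copper term by list position. The prostaglandin transporter gene Slco2a1 rose from 36.9 and 35.4 to 77.5 and 92.5 CPM (1.23 ± 0.12).

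In the larger families of detoxifying enzymes more genes fell than rose. Of 15 glucuronosyltransferase genes 7 fell and 2 rose, and of 22 genes of cytochrome P450 family 2 likewise 7 fell and 2 rose. Under the copper term by library number 2 glucuronosyltransferase genes rose and none fell, and 2 of the P450 genes fell and none rose. Without the Rosa control male 4 glucuronosyltransferase genes fell and 3 rose. Members of the Ugt1a locus share their last exons, and reads that fit more than 1 gene may be left out of the counts. Within this locus Ugt1a1 rose from 1.13 and 0.758 CPM to 10.5 and 6.61 (3.16 ± 0.22) with Ugt1a2. Ugt1a7c fell from 143 and 107 to 29.1 and 34.8 (-1.95 ± 0.16) and Ugt1a10 from 50.1 and 72.1 to 18.6 and 23.8 (-1.51 ± 0.16). Cyp2a4, a steroid hydroxylase gene with near-identical copies, fell from 839 and 949 to 347 and 257 CPM (-1.58 ± 0.16) and Cyp2d9 from 225 and 179 to 103 and 61.3 (-1.34 ± 0.15). Cyp2d12 rose from 16.1 and 10.9 to 42 and 19.4 CPM (1.12 ± 0.17). Of 20 glutathione transferase genes 3 fell and 2 rose; Gstp1, a close copy of Gstp3, fell by 1.25 ± 0.15. In family 4 of the cytochromes P450, 4 of 13 rose and 3 fell.

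Of 12 renin-angiotensin and salt transport genes 2 rose and 1 fell, and without either R899X male library 1 rose and 2 fell. Agt, the angiotensinogen gene, rose from 58.8 and 43.6 CPM to 176 and 190.1 (1.85 ± 0.14, adjusted p = 2.27e-05), and Ren1, the renin gene, from 163 and 147 to 229 and 224 (0.55 ± 0.12), a call lost without either R899X male library (adjusted p up to 0.0627). In retinoid metabolism 4 of 17 rose and 4 fell. The rises were led by Dhrs9 and by Aldh1a2, a retinoic acid synthesis gene that went from 2.03 and 1.58 to 17.3 and 14.4 CPM (3.13 ± 0.20). The falls included Aldh1a3 and Aldh1a7 (-1.67 ± 0.27). In polyamine metabolism 2 of 12 rose and 1 fell, against 1 and 2 without either R899X male library: the arginase gene Arg2 went from 6.47 and 6.99 to 32.5 and 22 CPM (1.98 ± 0.18) while Odc1 fell.

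In cholesterol synthesis 2 of 12 genes rose and 2 fell. The squalene epoxidase gene Sqle rose from 79.8 and 82.2 CPM to 113 and 147 (0.67 ± 0.12, adjusted p = 0.00461). Insig1, whose product restrains the pathway, fell from 30.6 and 28.4 to 18.4 and 16.1 CPM (-0.77 ± 0.12). Of 17 PPARA targets and fatty acid oxidation genes 5 rose and none fell. The pyruvate dehydrogenase kinase gene Pdk4 rose from 16.3 and 19.4 to 47.3 and 32.8 CPM (1.14 ± 0.26), a call lost with DESeq2 (adjusted p = 0.207). Of 11 genes of gluconeogenesis and insulin response none rose and 3 fell; the insulin receptor substrate gene Irs2 fell by 0.65 ± 0.11 and the glucose transporter gene Slc2a2 by 0.71 ± 0.14. Of 15 clock genes 1 rose and 4 fell: the repressor gene Cry1 went from 4.06 and 3.31 to 11.8 and 7.08 CPM (1.32 ± 0.19), and Ciart from 11.1 and 9.2 to 3.73 and 2.83 (-1.63 ± 0.20). The hour of tissue collection is not in the labels.

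Genes of copper and iron handling were looked at because of the mineral supplement. Of 19 copper handling genes 3 rose and none fell. Cp, the gene of the copper-carrying ferroxidase ceruloplasmin, went from 38.7 and 39.3 CPM to 94.1 and 63.4 (0.98 ± 0.16). The metallothionein genes, which copper and zinc induce, had, for Mt1, 61.8 and 46.7 CPM in the controls against 87.1 and 52.2 with 16OHE (adjusted p = 0.253) and, for Mt2, 21.2 and 18.6 against 33.7 and 23.2. The call of Mt2 (0.50 ± 0.12) was lost without either Rosa male library (adjusted p up to 0.482). Of 11 iron and heme genes 2 rose and 2 fell. The iron exporter gene Slc40a1 rose from 58.8 and 60.2 to 118 and 113 CPM (0.95 ± 0.11), the transferrin receptor gene Tfrc fell from 95.5 and 99.4 to 46.8 and 59.6 (-0.88 ± 0.12), and the heme oxygenase gene Hmox1 fell from 31.3 and 41.4 to 12.1 and 17.9 (-1.29 ± 0.12).

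Several secreted and channel genes with large rises fell outside these pathways. Aqp8, a water channel gene, went from 0.425 and 1.24 CPM to 46.8 and 47.8 (5.77 ± 0.27, adjusted p = 7.36e-07), and Aqp5 from 0.992 and 1.38 to 6.49 and 7.95 (2.61 ± 0.37), while Aqp11 fell from 73.6 and 65.9 to 40.6 and 32.6 (-0.93 ± 0.11). The serpin gene Serpina10, whose product inhibits coagulation factors, rose from 1.04 and 0.827 to 25.4 and 44.3 CPM (5.22 ± 0.26), and Serpina1f from 94.9 and 45.4 to 279 and 196 (1.83 ± 0.15). Of 7 male reproductive tract markers, Crisp1 and Spink1, a trypsin inhibitor gene, were tested and rose, Spink1 from 143 and 163 to 255 and 279.7 CPM. The other 5, Svs4, Svs5, Pate4, Defb20 and Pbsn, had no read in any of the 4 libraries.

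Inflammatory genes moved in both directions. Of 11 chemokine and inflammation genes 2 rose and 2 fell. Il18bp, whose product blocks interleukin 18, rose from 2.69 and 2.24 CPM to 60.4 and 89.4 (4.93 ± 0.20, adjusted p = 2.21e-07), and Nfkbia, the gene of an NF-kappaB inhibitor, from 27.4 and 29 to 84.8 and 66.3 (1.41 ± 0.18). The prostaglandin synthase gene Ptgs2 fell from 3.73 and 6.06 to 1.0 and 0.826 CPM (-2.39 ± 0.35) and the chemokine gene Cxcl1 from 3.02 and 7.82 to 1.16 and 0.905 (-2.28 ± 0.53). The call of Cxcl1 was lost with DESeq2 (adjusted p = 0.208) and with the copper term by list position (0.0896 by edgeR). Of 14 complement genes 3 rose and none fell, and of 12 tubular injury genes 2 rose. The injury marker Havcr1 went from 3.59 and 6.3 to 15.5 and 10.5 CPM (1.38 ± 0.30), a call lost without either Rosa male library (adjusted p up to 0.0838).

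In the mast cell list and in the B and plasma cell list 2 genes each rose. Tpsab1, a mast cell tryptase gene, went from 0.236 and 0.207 CPM to 14.9 and 10.3 (5.77 ± 0.34, adjusted p = 3.52e-06), and its close copy Tpsb2 from 0 and 0.0344 to 0.601 and 0.826. Of the other 6 mast cell markers, Cpa3 had no read in the 4 libraries, Cma1 and Mcpt4 had at most 1, and Kit, Ms4a2 and Gata2 did not pass. The 5 tested markers summed to 40.2 and 37.5 CPM in the controls and 60.6 and 47 with 16OHE. Of 6 tested B and plasma cell markers the immunoglobulin genes Igkc and Jchain rose, Igkc from 39.6 and 242 to 351 and 437 CPM (1.98 ± 0.42) and Jchain from 10.1 and 64.9 to 103 and 144 (2.14 ± 0.37). With DESeq2 the adjusted p of Igkc was 0.0981. Both were lowest in the Rosa control, and the R899X pair differed less. The 6 markers summed to 53.1 and 311 CPM in the controls and 458 and 586 with 16OHE. The part of such cells in these changes was not tested. No macrophage, T cell or neutrophil marker passed, with 9, 5 and 2 tested, and with a male library left out at most 1 of each list passed.

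Several lists had no call in either direction. These were nuclear oxidative phosphorylation (12 genes tested), mitochondrially encoded genes (13), cell cycle (11) and histamine metabolism (6). The median of the mitochondrially encoded genes was -0.54. The same held for markers of distal convoluted tubule, principal cells, intercalated cells, podocytes, urothelium, adipocytes, adrenal cortex and red cells. With the copper term by list position 1 histamine gene and 1 red cell marker were higher and 1 principal cell marker lower. By library number 1 adipocyte marker was lower. Without either Rosa male library 4 of the 6 adipocyte markers were lower, and principal cell markers had 1 higher and 2 lower. Without either R899X male library 2 principal cell markers were higher, and red cell markers had 1 higher and 1 lower. In other lists few genes passed: ER stress had 1 of 10 lower (5 without either Rosa male library), heat shock 1 of 9 lower, immediate early genes 2 of 12 lower, interferon response 1 of 11 higher and NRF2 targets 1 of 11 each way. Among the families, 1 of 8 anoctamins, 1 of 7 sulfotransferases and 2 of 11 SLC7 genes were higher. Without either R899X male library 1 SLC7 gene was higher and 2 were lower. The podocyte markers summed to 317 and 361 CPM in the controls and 328 and 337 with 16OHE. Of 9 endothelial markers 1 fell, Emcn, from 46.4 and 39.1 to 31.5 and 26.9 CPM (-0.55 ± 0.11). It stood at 27.8 CPM in the Delx4 control male, which had no 16OHE. Of 6 markers of the thick ascending limb 1 rose, Umod, by 0.58 ± 0.15, a call lost without either Rosa male library.

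The counts of some lists rested on 1 genotype. With a male library left out 1 male pair remained, and the spread behind its p-values came from the female pairs. Without either Rosa male library no complement gene rose and 1 fell, 3 estrogen-responsive genes rose, 2 tubular injury genes fell and none rose, and 11 of the 12 immediate early genes fell. Of genes that BMPs and TGF-beta induce 3 rose and 3 fell, of steroid hormone receptors 3 rose and 2 fell, of PPARA targets 3 rose and 1 fell, and of clock genes 1 rose and 2 fell. In family 4 of the cytochromes P450 2 rose and 2 fell, and 3 proximal tubule markers fell. In that setting the R899X pair alone carried the male change, and its control stood high for Fos. Without either R899X male library 8 of the 13 mitochondrially encoded genes were lower, and 5 complement genes rose and 1 fell. The part of the larger mitochondrial share of the Rosa control was not tested. The mural and fibroblast markers then had 4 higher and 1 lower, against 1 higher and 4 lower without either Rosa male library. Without either R899X male library 3 clock genes rose and 3 fell. Under the copper term by library number no gene passed in the lists of steroid hormone receptors, BMP and TGF-beta target genes, complement, tubular injury, clock, copper handling, proximal tubule, SLCO, and mural and fibroblast markers. Of the vitamin D and phosphate genes 1 then rose and none fell, and of the TGF-beta and activin ligands and traps 2 rose.

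The male response was compared with that of females, whose 4 libraries are separate. In females 344 genes passed, 249 (1.52%) higher and 95 (0.581%) lower. Of the 782 genes higher in males 182 (23.3%) were also higher in females, which was 73.1% of the female rises. Of the 708 lower in males 48 (6.78%) were also lower in females, or 50.5% of the female falls. The difference between the sexes passed for 221 genes (1.35%), and 202 of these were among the 1490. Read as library numbers, minerals differed within both male pairs but within the Rosa female pair alone. The comparison of the sexes is then not balanced for minerals, and with the copper term by library number 135 genes passed. Dhrs9 rose in both sexes, from 0.153 and 0.129 CPM to 23.5 and 26 in females, and the male minus female difference of 1.31 ± 0.65 did not pass (adjusted p = 0.695). Tgfb2 rose in both but more in males: females went from 4.35 and 5.03 to 42.9 and 57.8 CPM, and the difference of the log2 changes was 2.76 ± 0.21 (adjusted p = 0.000146).

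Several genes whose response differed between the sexes also differ between control males and females. Ugt1a2 did not pass in females, at 619.7 and 687 CPM in the controls against 616 and 592 with 16OHE, and its difference was 3.78 ± 0.20 (adjusted p = 1.77e-05). Slc7a12 had 218 and 236 CPM in control females and 270.2 and 389.7 with 16OHE, a difference of 5.24 ± 0.37. Odc1 had 241 and 253 CPM in control females against 230.3 and 187 with 16OHE, near the level of the 16OHE males (-2.06 ± 0.30, adjusted p = 0.00656). For collagen VI the male minus female difference did not pass, at -0.08 ± 0.31 for Col6a1 and -0.06 ± 0.33 for Col6a3. Agt rose in males, while females had 86 and 68 CPM in controls and 80.1 and 73.1 with 16OHE (1.85 ± 0.20, adjusted p = 0.0016).

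Opposite calls in the sexes were rare. Cyp4a10 and Uroc1 were among 3 genes called higher in males and lower in females. For Cyp4a10, a fatty acid hydroxylase gene, males went from 314 and 390.3 CPM to 667 and 527 and females from 1643 and 1301 to 534 and 469.8 (male minus female 2.30 ± 0.23, adjusted p = 0.00112). The 3 called lower in males and higher in females were Cyp7b1, Itih2 and Chst7. Cyp7b1, an oxysterol hydroxylase gene, was male-high in the control kidneys. It went from 164 and 68.7 to 53.4 and 54.9 CPM in males and from 1.02 and 1.46 to 37.2 and 51.9 in females. The 16OHE libraries of both sexes thus lay between 37.2 and 54.9 CPM. The male calls of Cyp7b1 and Cyp4a10 were lost without either Rosa male library (adjusted p up to 0.379 and 0.19). That of Chst7 was lost without them too (adjusted p up to 0.162). Uroc1, Itih2 and Chst7 were named after their values were seen.

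**Figure D5:**
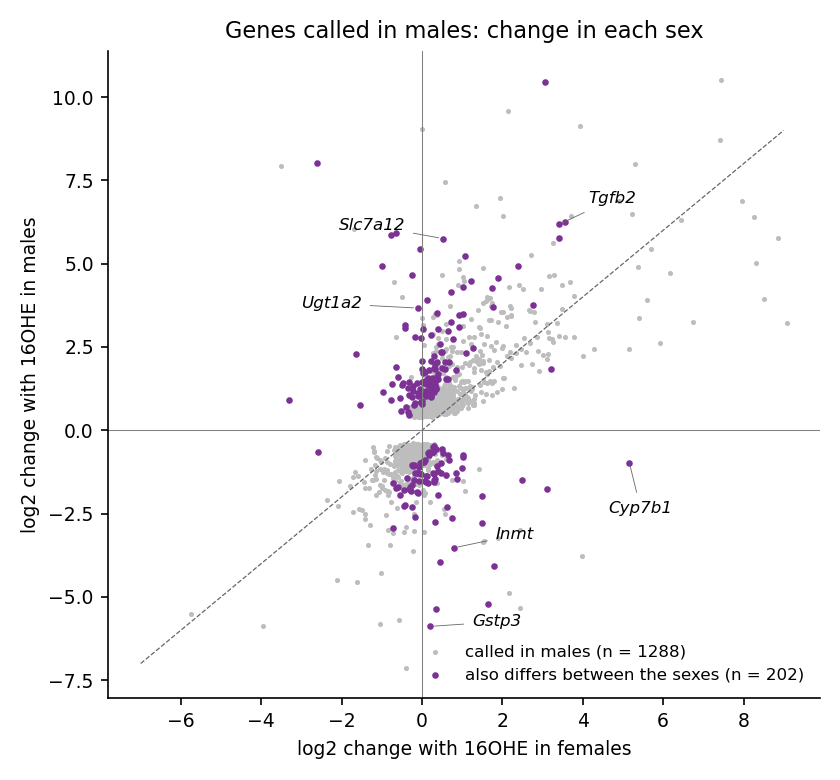
Change with 16OHE in females (x axis) against males (y axis), as fitted log2 fold change, for the 1490 genes called in males; purple marks the 202 whose change differed between the sexes, grey the others, and the dashed line is equal change. Most purple points lie nearer to 0 on the female axis than the dashed line; points far from 0 on an axis include genes with no reads in a group, whose fitted value is no bound.

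The Rosa and R899X pairs differed in the size of the response for 53 genes (0.324%), tested with a term shared by the sexes. Read as places in the list, the mineral numbers cover both R899X 16OHE libraries and neither R899X control. In neither Rosa pair do minerals then differ. Under that reading the genotype term and minerals cannot be told apart. Fos, an immediate early gene, was at 18.2 and 77.5 CPM in the Rosa and R899X control males and at 25.8 and 31 with 16OHE, and the R899X minus Rosa difference of log2 changes was -1.90 ± 0.17 (adjusted p = 4.00e-05). Nr4a1, of the same class, had 24.1 and 68.3 CPM in the controls and 16.3 and 15.8 with 16OHE (-1.47 ± 0.17). In both genes the R899X control stood above the other 3 male libraries. The fat cell genes Cfd and Car3 and Hdc were the others with the smallest p. Fat cell markers moved with Cfd and Car3 in the males: Plin1 had 68 reads and Ucp1 127 in the R899X control, and at most 9 and 3 in the other 3 libraries; the part of fat tissue in them was not tested. Named after their values were seen, 3 male-high genes also passed, with a difference of 1.88 ± 0.24 for Cyp2j13 (adjusted p = 0.000535), 1.74 ± 0.26 for Pzp and 2.10 ± 0.32 for Slc7a13. In these the R899X 16OHE male lay above the Rosa 16OHE male. Outside these 53 genes the term did not pass, which does not show that the pairs responded alike.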

How the data were processed

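Per the labels' protocols, kidneys were flash-frozen, RNA was extracted by Qiagen RNeasy and polyA-selected, 1 pool of 3 mice per library, and stranded Illumina libraries were sequenced. The authors deposited raw read counts per gene for each library; the submitters' processing notes name STAR 2.5.1b, HTSeq and the build UMD 3.1, a cattle assembly, although the gene identifiers are mouse Ensembl identifiers. The mouse build was not given in the sources used here. Symbols were matched by identifier in GENCODE mouse M21. The strand column with more gene reads was used, and it held 13.8 to 17.2 times the reads of the opposite strand in the 4 male libraries. Reads outside genes stayed out of library sizes.

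Genes were filtered with edgeR 4.0.16 (R 4.3.3; minimum count 10, minimum total 15), scaled by TMM and fitted by quasi-likelihood over all 10 libraries, with a level for each genotype and sex and a treatment term in each sex. This left 2 residual degrees of freedom, and the male term rests on the 2 male pairs. A gene was called at a Benjamini-Hochberg adjusted p of 0.05 with the same sign in both pairs. The interaction of R899X with treatment was added in a separate fit. Gene lists are described by counts and medians, without a set test. Alternatives included DESeq2 1.42.0, limma-voom (limma 3.58.1), other filters and scaling, copper terms, the 4 male libraries alone and each male library left out, which leaves 1 male pair and takes the spread from the female pairs.

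The members, gene lists and tests were chosen with earlier results of these data known. Genes named are the 15 largest changes each way among genes at least 2-fold apart in both pairs at 1 CPM or more, up to 4 per list by smallest p, the 6 largest sex differences and Delx4 differences each way, the 5 smallest p for genotype, and fixed controls (Ddx3y, Xist, Bmpr2, Esr1, Pgr, Kap, Odc1, Mt1, Mt2, Ren1, Havcr1, Gm42418); others are said to be named after their values were seen, or are markers quoted as not passing. A few genes that this rule selects are not reported here. P-values measure departures between single pools, not animals.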

Additional observations from a re-analysis of the deposited data

Results flagged for a closer look

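The difference between the male and the female change with 16OHE passed edgeR's quasi-likelihood test for 221 genes, and the values below are male minus female differences of log2 changes. Read as library numbers, minerals differed within both male pairs but within the Rosa female pair alone. The differences given here are then not balanced for minerals. They were picked out because the difference between the sexes itself passed. Among genes higher with 16OHE in males it was 10.64 for Mucl2, 6.63 for Minar1, 6.57 for Serpina6, 5.91 for Tpsb2 and 5.48 for Atp13a4, all with few or no reads in the control males, so that these fitted sizes are no bound. It was 5.24 for Slc7a12, 4.15 for Serpina10, 3.91 for Cyp4a14, 3.79 for Slc17a2, 3.78 for Ugt1a2, 3.59 for Ugt1a1 and 3.48 for Prlr. It was 2.80 for Akr1c18, 2.76 for Tgfb2, 2.68 for Ano5, 2.67 for Tgfb3, 2.62 for Abcc3, 2.54 for Il18bp, 2.37 for Aqp8, 2.33 for Slc22a19, 2.30 for Cyp4a10, 2.12 for Havcr1 and 2.11 for Pdk4. Smaller differences were 1.97 for Socs2, 1.90 for Uroc1, 1.85 for Agt, 1.69 for Slc22a29, 1.66 for Arg2, 1.52 for Nfkbia, 1.51 for Serpina1f and 1.42 for Kynu. The smallest were 1.21 for Cyp2d12, 0.97 for Spink1 and 0.89 for each of Ren1 and Slco2a1.

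Among genes lower with 16OHE in males, the same difference was -1.29 for Cyp4b1, -1.35 for Cyp2e1, -1.42 for Ugt1a7c, -1.58 for Lama1, -1.73 for Cyp2a4, -1.77 for Chst7 and -1.93 for Cyp2d9. It was -2.06 for Odc1, -2.43 for Vcan, -3.99 for Cyp2j13, -4.32 for Inmt, -4.40 for Rtp3 and -4.87 for Itih2. Larger differences were -5.72 for Cldn11, -5.86 for Aldh1a3, -6.09 for Gstp3, -6.13 for Cyp7b1 and -6.85 for Hapln1. Cldn11 and Hapln1 had at most 3 reads in each 16OHE male, and Gstp3 at most 0.23 CPM in the Rosa and R899X females. The fitted sizes of these genes are therefore no bound. Igkv9-124, an immunoglobulin segment gene, was not called in males and differed by -5.77.

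The R899X and Rosa changes differed for 53 genes, tested with a term shared by the sexes. Under the list-position reading of the minerals, that term cannot be told apart from minerals. The values that follow are R899X minus Rosa differences of log2 changes that passed. They were 2.10 for Slc7a13, 1.88 for Cyp2j13, 1.74 for Pzp, 1.56 for Slco1a1 and 1.03 for Akr1c18. Collagen genes were on the other side, at -1.08 for Col6a2 and -1.25 for Col1a1, as was the immunoglobulin gene Igkc at -1.58. The immediate early genes Nr4a1 and Fos were at -1.47 and -1.90, and Hdc at -2.44. Genes of fat cells had -3.74 for Car3, -7.09 for Cfd, -8.26 for Ucp1 and -10.06 for Plin1, with few or no reads in some libraries.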

How the results depend on the processing

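The count of 1490 genes in males lay between 1096 (DESeq2) and 2197 (no filter on low counts) over the settings other than copper, and between 1263 and 1838 with each male library left out in turn. With the copper term by library number it was 128, and the shares of Delx4-chosen genes became 7.04% of male-high genes lower and 12.6% of female-high genes higher; chosen at 10 CPM they were 56.6% and 63.1%. No cause was tested for these shifts, beyond that minerals and 16OHE coincide in the males under that reading. The replicate block is the genotype pairing: all libraries carry the number 1 in their group, so the block is genotype; the 4 males alone gave 1812 genes with it and 1243 with no replicate block. The 221 genes that differed between the sexes became 710 without a filter, 393 with the genotype effect shared by the sexes, 135 and 445 with copper terms by library number and list position, and 539 to 629 with a male library left out. The 53 genes of the genotype term became 137 without a filter. With the copper term by library number the log2 change turned to 0.72 for Cyp2j13, -0.35 for Col1a1, -0.028 for Pdgfrb and -1.05 for Aqp5, and by list position that of Fos to 0.54. Of 134 named genes that passed in males, 117 also passed with each male library left out, where 1 male pair remains and the female pairs give the spread, and 35 with the copper term by library number, where 130 kept their direction. The calls of Acta2, Tagln, Cyp7b1, Mt2 and Nr4a1 were also lost with DESeq2, those of Aldh1a3, Cldn11, Emcn, Pdk4, Plat and Vcan with the genotype effect shared by the sexes, and those of Myh11, Acta2, Tagln, Ren1, Umod, Ces1a, Cyp2b10, Dpys and Nwd2 with the copper term by list position. With the 4 males alone and no replicate block, 14 named genes lost their call. These were Acta2, Col6a6, Cyp2d12, Cyp2j13, Cyp7b1, Id4, Igkc, Jchain, Mt2, Mucl2, Myh11, Nr4a1, Tagln and Umod. Umod also lost its call with the 4 males alone and the block kept. Depth limits the genes with no read in the controls, for which a bound was given.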
